A study of Rattus norvegicus with 6 samples.

Results

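Transcripts of 10 enzymes able to reduce anthracyclines were followed in the hearts of rats given doxorubicin: the carbonyl reductases Cbr1, Cbr3 and Cbr4, the aldo-keto reductases Akr1a1, Akr1b1 and Akr7a2, the quinone reductase Nqo1, and the flavoenzymes Por, Xdh and Cyb5r3. The genes were chosen by name for their known role in drug reduction, under a rule that uses no measured value, although earlier results of these data were known when the list was drawn up. All 10 were among the 17487 gene symbols of the count table, each on a single row, and all 10 were among the 9205 symbols that passed the low-count filter. The animals were adult male Wistar rats, an outbred strain. The doxorubicin group of 3 rats received 3.75 mg/kg doxorubicin hydrochloride into the tail vein every week for 4 weeks. The control group of 3 rats received 0.9% sodium chloride on that schedule. The labels named no genetic modification in either group, and gave neither the animals' age in weeks, the heart chamber sampled nor the time from the last injection to collection. RNA came from heart tissue, 1 poly-A library per rat.

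Anthracyclines carry a quinone ring system and a side-chain ketone, and enzymes attack them at both places. Carbonyl and aldo-keto reductases use NADPH to turn the ketone into an alcohol, which gives doxorubicinol, a long-lived metabolite linked to heart toxicity. Flavoenzymes such as Por, Xdh and Cyb5r3 can instead pass a single electron to the quinone, and the semiquinone radical that forms hands the electron on to oxygen. Nqo1 transfers a pair of electrons at once and so bypasses the radical for many quinones. Transcript levels report neither enzyme activity nor metabolite levels.

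Sequencing depth was modest, with 2219685 to 3508282 counts per library. Levels are given as CPM, counts scaled to a common library total, after TMM scaling, which corrects those totals for differences in composition, and 3 counts correspond to 0.855 to 1.35 CPM of the unscaled totals. Control library 1 stood apart from the others on the first principal component (-43.3, against -4.83 to 26.6), and values without it are given beside the results that it moves most. It was also highest for 2 atrial myosin light chains, with Myl7 at 164 CPM against 2.06 to 6.42 CPM in the other 5 libraries, and Myl4 at 68.4 against 5.30 to 26.0 CPM. The sum of all 4 atrial markers, with Sln and Nppa, went otherwise. It was 700 CPM in control library 1, but 3286 CPM in doxorubicin library 1 and 918 CPM in doxorubicin library 3. In the remaining libraries it was 187 to 389 CPM. Of the 10 enzymes, 7 had their highest level of the 6 libraries in control library 1, and the part of atrial tissue in this was not tested. The summed level of 8 cardiomyocyte markers was 131765 to 158435 CPM in control and 103949 to 121915 CPM in doxorubicin libraries, so the labelled tissue held abundant heart muscle RNA in every library.

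Xdh was the enzyme that differed most between the groups, at 1.67 times the control level in doxorubicin hearts. The other 9 had log2 fold changes between -0.42 and 0.20, and each of their 95% intervals included no change. With edgeR's quasi-likelihood test and Benjamini-Hochberg adjustment over all symbols, 0 of the 10 enzymes passed an adjusted p of 0.05, where 0.0543% of all symbols did. DESeq2 and limma voom also called 0 of the 10. At an unadjusted p under 0.05 there was 1 of 10, Xdh, against 8.10% of all symbols in either direction and 4.00% higher in doxorubicin. The groups did not overlap for 2 of 10, Xdh on the higher side and Cyb5r3 on the lower, against 13.4% of all symbols in either direction, 6.39% higher and 7.06% lower. Shares of this size in a list of 10 lie near the background. The median log2 fold change of the 10 was -0.19, with 7 below 0, and that of all tested symbols was 0.02. The median of the 10 was -0.06 without control library 1.

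**Figure D1:**
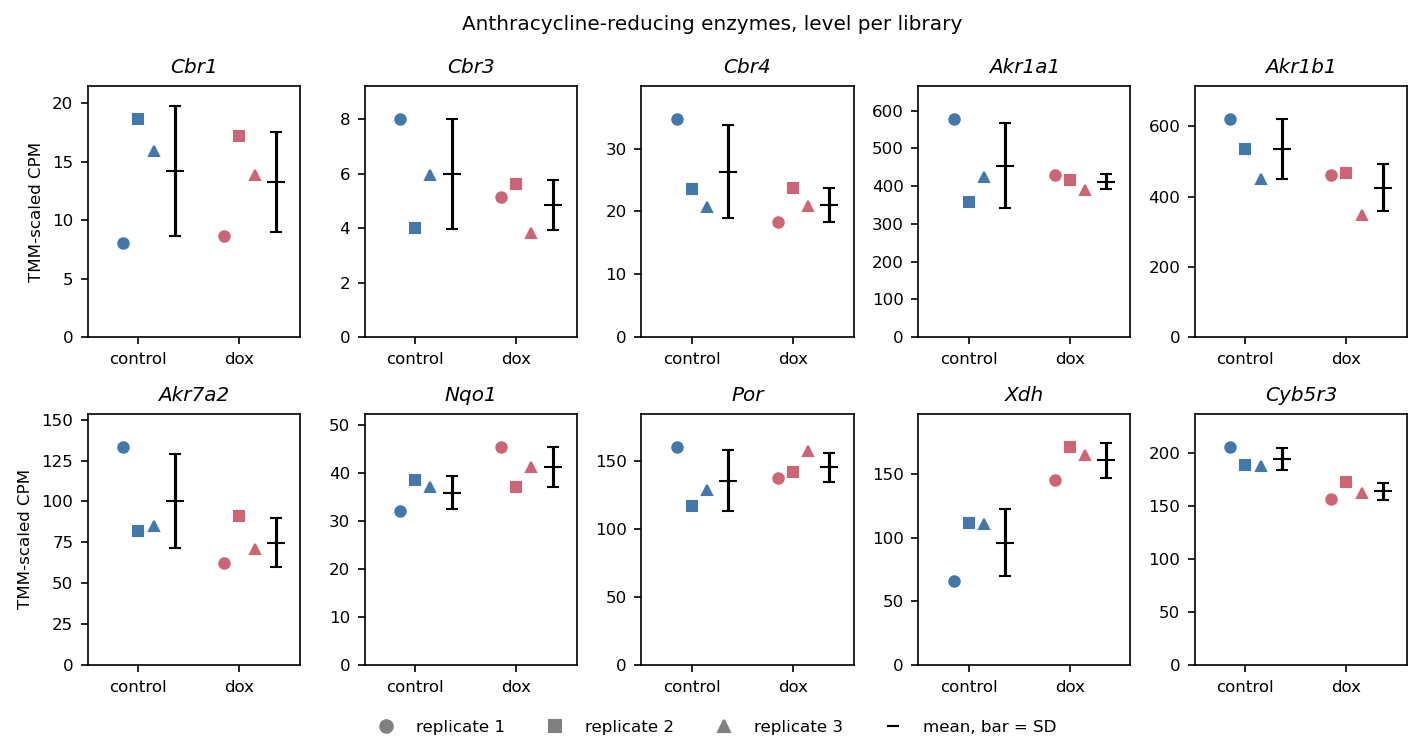
Level of each of the 10 enzymes in TMM-scaled CPM (vertical axis, linear from 0, a separate scale for each gene) in 3 control and 3 doxorubicin (dox) libraries, with the replicate number as the symbol and the mean and SD in black. Xdh lay between 145 and 172 CPM in doxorubicin and at or below 112 CPM in control libraries, and control library 1 was the highest of the 6 for 7 genes.

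The stretches of DNA upstream of the start sites of Xdh and Cyb5r3 are shown because these were the enzymes whose groups did not overlap, in opposite directions. Both are from RefSeq on the build GRCr8, are the 250 bases before the annotated start, and were matched by gene symbol. Of the 10 enzymes, 9 had such a stretch. The counts were made on another build, mRatBN7.2 per the submitters' processing notes, so the coordinates belong to GRCr8 only. Capitals mark the GC box letters GGGCGG and the CCAAT box letters CCAAT, each on either strand.
Xdh, chr6:27282069-27282318, + strand: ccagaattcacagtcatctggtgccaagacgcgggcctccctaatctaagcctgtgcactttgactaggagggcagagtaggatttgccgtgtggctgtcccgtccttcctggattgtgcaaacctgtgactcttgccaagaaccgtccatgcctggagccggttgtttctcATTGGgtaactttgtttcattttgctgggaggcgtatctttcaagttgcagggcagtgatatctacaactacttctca
Cyb5r3, chr7:116204291-116204540, - strand: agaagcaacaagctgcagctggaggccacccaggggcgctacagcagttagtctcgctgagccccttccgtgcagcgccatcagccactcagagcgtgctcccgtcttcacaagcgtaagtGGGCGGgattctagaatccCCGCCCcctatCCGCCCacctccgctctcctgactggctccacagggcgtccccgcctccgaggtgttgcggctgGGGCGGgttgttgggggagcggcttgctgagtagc
The Xdh stretch held 1 CCAAT box and 0 GC boxes and was 50.8% G or C. The Cyb5r3 stretch held 4 GC boxes and 0 CCAAT boxes and was 65.6% G or C, where the median over all upstream stretches was 52.0%. Of 27455 upstream stretches of this length, 32.4% held a GC box and 34.3% a CCAAT box. Neither stretch held TGACNNNGC, the core of the antioxidant response element bound by Nrf2, nor did those of the other 7 enzymes, and 10.2% of all stretches did. A match or its absence describes letters in this window only.

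Cbr1 and Cbr3 encode closely related cytosolic carbonyl reductases, and Cbr1 is regarded as a main source of doxorubicinol. Cbr1 was at 8.02, 18.7 and 15.9 CPM in control libraries 1, 2 and 3 and at 8.67, 17.2 and 13.9 CPM in doxorubicin libraries 1, 2 and 3. In each group library 1 was the lowest and library 2 the highest, and the groups overlapped almost fully. The log2 fold change was -0.10 (SE 0.36, edgeR adjusted p = 0.969), and its 95% interval ran from 0.549 to 1.59 times the control level. Its sign turned to 0.13 without control library 2 or without doxorubicin library 1, and to 0.0018 without control library 3, and it was -0.37 without control library 1. These levels rested on 21 to 56 reads per library. Counting error alone is wide at this depth: the exact 95% Poisson interval of the 21 reads of control library 1 is 13.0 to 32.1.

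Cbr3 was at 8.02, 4.00 and 5.96 CPM in control and at 5.14, 5.62 and 3.83 CPM in doxorubicin libraries 1, 2 and 3, on 9 to 21 reads each. The doxorubicin range lay almost wholly inside the control range. Its log2 fold change of -0.31 (SE 0.42) had the widest interval of the 10, from 0.434 to 1.49 times control, and the edgeR adjusted p was 0.884. It was -0.06 without control library 1. Of the reads of Cbr1 and Cbr3 together, Cbr1 held 82.4% in control library 2 (from 69.7 to 90.4 by Wilson's 95% method), 72.7% in control library 3 (from 61.9 to 81.4) and no more than Cbr3 in control library 1, with 21 reads each. The doxorubicin hearts had 62.8% in library 1 (from 47.9 to 75.6), 75.3% in library 2 (from 64.4 to 83.8) and 78.3% in library 3 (from 66.4 to 86.9). Control hearts varied in this balance by 16.6 percentage points (SD, n = 3), more than the distance between the means, 68.4% in control and 72.2% in doxorubicin. The intervals cover counting error only. How reads shared by the related Cbr1, Cbr3 and the Cbr1-like genes of the RefSeq list were counted was not stated, so both levels are uncertain.

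Cbr4 encodes a mitochondrial reductase that accepts quinones and, with Hsd17b8, forms the ketoacyl reductase of mitochondrial fatty acid synthesis. Its level was 34.7, 23.5 and 20.7 CPM in control and 18.3, 23.7 and 20.9 CPM in doxorubicin libraries 1, 2 and 3. Control library 1 alone lay above the rest. Its log2 fold change was -0.32 (SE 0.26, edgeR adjusted p = 0.787), and without control library 1 it was -0.07. In the RefSeq list the span of Cbr4 overlaps that of another protein-coding gene, whose symbol is not in the count table. Whether strand was used in counting is not given in the sources used here.

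The aldo-keto reductases had lower means in doxorubicin hearts, but the groups overlapped for each of the 3 and none passed the test. Akr1a1, aldehyde reductase, was at 579, 358 and 425 CPM in control and at 431, 417 and 389 CPM in doxorubicin libraries 1, 2 and 3. All 3 doxorubicin values lay between the lowest and the highest control value. Its log2 fold change was -0.14 (SE 0.20, edgeR adjusted p = 0.894) and became 0.08 without control library 1. Akr1b1, aldose reductase, which makes sorbitol from glucose in the polyol pathway, was at 621, 535 and 451 CPM in control and at 462, 466 and 349 CPM in doxorubicin libraries. The groups overlapped through control library 3 only. The log2 fold change was -0.33 (SE 0.19, edgeR adjusted p = 0.694), an interval of 0.595 to 1.06 times control, and it was -0.21 without control library 1. Akr7a2, which reduces aldehydes such as succinic semialdehyde, was at 134, 82.2 and 84.9 CPM in control and at 62.3, 91.4 and 70.7 CPM in doxorubicin libraries. Doxorubicin library 2 lay above control libraries 2 and 3, while doxorubicin libraries 1 and 3 lay below all controls. Its log2 fold change, -0.42 (SE 0.23, edgeR adjusted p = 0.675), was the lowest of the 10. It was -0.16 without control library 1 and -0.58 without doxorubicin library 2, where the unadjusted p was 0.0385 and the edgeR adjusted p 0.493.

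Summed over the 3 genes, aldo-keto reductase transcripts amounted to 1333, 975.1 and 962 CPM in control and 955, 974 and 809 CPM in doxorubicin libraries 1, 2 and 3. Doxorubicin libraries 1 and 2 were thus at the level of control libraries 2 and 3. The cardiomyocyte markers were lower in doxorubicin as well, with all 8 below 0, a median log2 fold change of -0.42 and 4 of 8 at an unadjusted p under 0.05. Of all symbols, 4.11% were lower at that threshold. The median of the 8 markers was -0.18 without control library 1, with 7 of 8 below 0 and 3 at an unadjusted p under 0.05. Their part in the aldo-keto reductase values was not tested. In bulk tissue, fewer cells of a type and less RNA per cell cannot be told apart.

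Nqo1, a flavoprotein induced by the transcription factor Nrf2 in many tissues, was at 32.1, 38.7 and 37.2 CPM in control and at 45.6, 37.1 and 41.3 CPM in doxorubicin libraries 1, 2 and 3. Doxorubicin libraries 1 and 3 lay above all controls and library 2 within them. For Nqo1 the log2 fold change was 0.20 (SE 0.20, edgeR adjusted p = 0.835), and its 95% interval ran from 0.848 to 1.55 times the control level. Nqo1 had 84 to 142 reads per library, and without control library 1 its log2 fold change was 0.13.

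**Figure D2:**
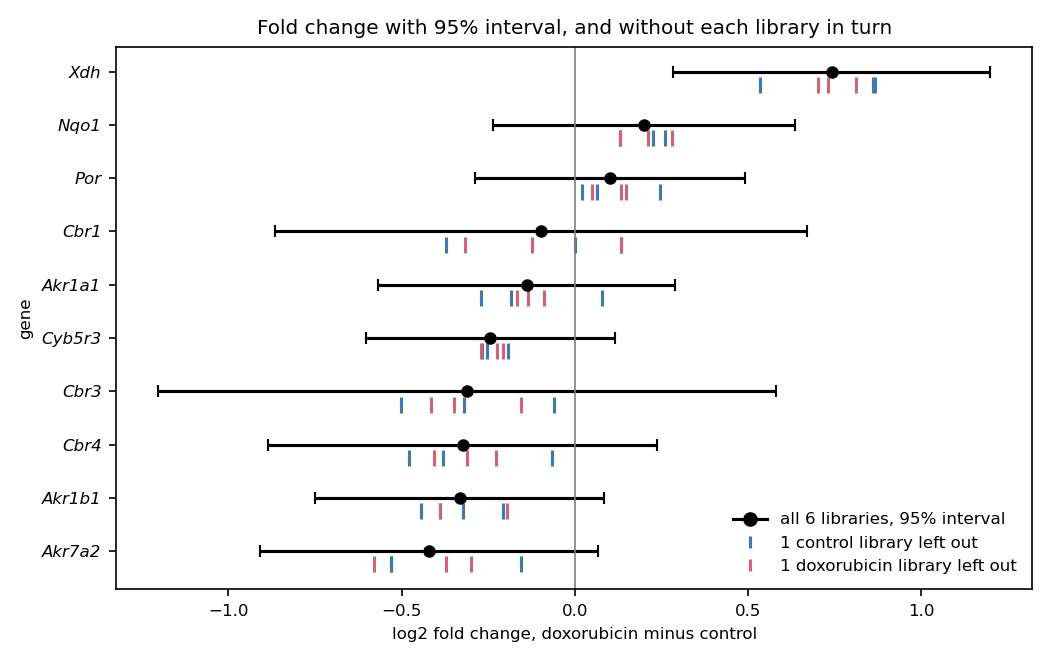
Log2 fold change of each enzyme, doxorubicin minus control (horizontal axis), with the estimate and 95% interval from all 6 libraries in black and, just below, the estimates without 1 control (blue) or 1 doxorubicin (red) library. The interval of Xdh, 0.28 to 1.20, is the only 1 of the 10 that leaves out 0, and the estimates of Cbr1 and Akr1a1 change sign when single libraries are left out.

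Xdh encodes xanthine oxidoreductase, which oxidises hypoxanthine and xanthine to uric acid and, in its oxidase form, passes electrons to oxygen. Its level was 65.7, 112 and 111 CPM in control libraries 1, 2 and 3 and 145, 172 and 165 CPM in doxorubicin libraries 1, 2 and 3, from 172 to 560 reads. All 3 doxorubicin values lay above all 3 control values, and control library 1 was the lowest of the 6. The log2 fold change was 0.74 (SE 0.21, 95% interval 0.28 to 1.20), and edgeR gave an unadjusted p of 0.00376 that became 0.279 after adjustment. Xdh ranked 124 of 9205 symbols by p. Without control library 1 the log2 fold change was 0.54 (SE 0.16) with an unadjusted p of 0.00662. Over all 19 other settings it stayed between 0.54 and 0.87 with an unadjusted p of at most 0.0134, and its adjusted p ranged from 0.108 to 0.555, so it passed the adjusted threshold in 0 of them.

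Por, the P450 oxidoreductase of the endoplasmic reticulum, was at 161, 117 and 129 CPM in control and at 137, 142 and 158 CPM in doxorubicin libraries 1, 2 and 3. The doxorubicin values lay within the control range. For Por the log2 fold change was 0.10 (SE 0.18, edgeR adjusted p = 0.908), with an interval of 0.818 to 1.41 times control, and it was 0.25 without control library 1.

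Cyb5r3, the NADH-cytochrome b5 reductase, was at 206, 188 and 188 CPM in control and at 157, 173 and 162 CPM in doxorubicin libraries. Every doxorubicin value lay below every control value, but the step was small, 0.845 times the control level. Replicates of Cyb5r3 were close, with a coefficient of variation of 5.36% among control and 4.95% among treated hearts. Its log2 fold change was -0.24 (SE 0.17, edgeR adjusted p = 0.743), and the interval of 0.658 to 1.08 times control included no change. Red blood cells also carry Cyb5r3. The 8 erythroid genes in the table, of which Alas2 was listed at 0 in every library, summed to 2040 to 7434 CPM in control and 701 to 2735 CPM in doxorubicin libraries. The 7434 CPM was control library 1, while control libraries 2 and 3, at 2040 and 2571 CPM, lay within the doxorubicin range. The median log2 fold change of the 7 tested genes was -1.07 with control library 1 and -0.25 without it, and that of Cyb5r3 was -0.24 and -0.19. The part of red cells in the Cyb5r3 values was not tested.

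Counted against each other within a library, a measure that needs no scaling between libraries, Xdh took a larger share of the reads of Xdh, Por and Cyb5r3 in doxorubicin hearts. Control hearts had shares of 15.2% in library 1 (Wilson 95% limits 13.2 and 17.4), 26.7% in library 2 (24.0 and 29.7) and 25.9% in library 3 (23.8 and 28.2). Treated hearts had 33.1% in library 1 (30.6 and 35.6), 35.3% in library 2 (33.0 and 37.7) and 34.0% in library 3 (31.8 and 36.4). Averaged by group, this was 22.6% ± 6.45 for control and 34.1% ± 1.12 for doxorubicin (SD, n = 3). The doxorubicin hearts lay close together and above every control heart, and control library 1 lay well below the other controls. The share was not tested, since both Xdh and Cyb5r3 already differed in this direction.

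**Figure D3:**
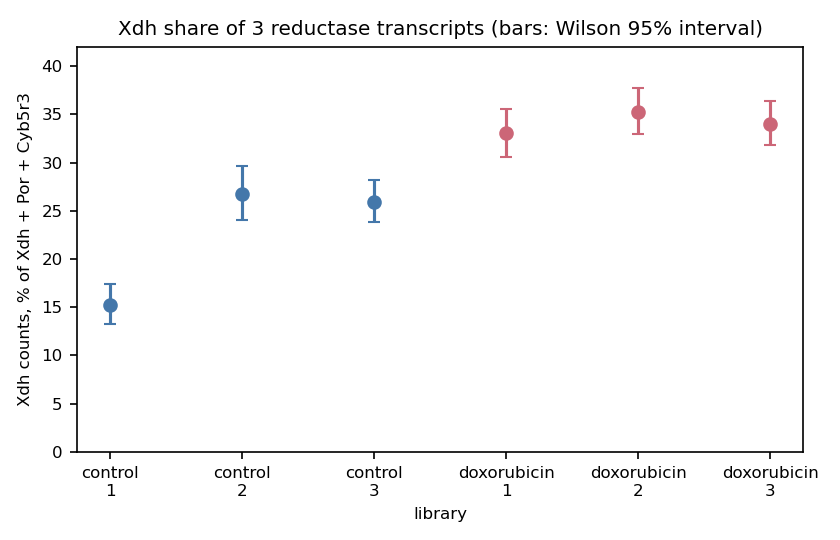
Xdh reads as a percentage of the reads of Xdh, Por and Cyb5r3 together (vertical axis, from 0) in each library (horizontal axis), with Wilson 95% intervals for counting error. Control libraries reach 26.7% at most and doxorubicin libraries start at 33.1%.

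Xdh is known for its high expression in the small vessels of the heart and in macrophages of some tissues, so markers of both were set beside it. At an unadjusted p under 0.05, 4.00% of all symbols were higher in doxorubicin and 4.11% lower. Of 10 endothelial markers, all above 0 counts, 0 were at an unadjusted p under 0.05 on the higher side and 2 on the lower side, Cldn5 (log2 fold change -1.15, SE 0.27) and Tie1 (-0.48, SE 0.20). Their edgeR adjusted p-values were 0.158 and 0.558. DESeq2 called 1 endothelial marker, but it also called more symbols in all, 75 of the 13050 given to it, where edgeR called 5 of 9205. The summed endothelial level was 1369 to 1633 CPM in control hearts against 1192 to 1612 CPM in doxorubicin hearts. Of 9 macrophage markers, all above 0 counts, 3 were at an unadjusted p under 0.05 on the higher side and 0 on the lower, and without control library 1 there was 1, Lyz2. None passed the adjusted threshold in edgeR or DESeq2. Their summed level was 261 to 273 CPM in control and 315 to 518 CPM in doxorubicin libraries. Lyz2, the lysozyme of macrophages, was at 116, 87.5 and 88.3 CPM in the control hearts and reached 126, 225 and 164 CPM in the treated ones (log2 fold change 0.82, SE 0.22, edgeR adjusted p = 0.244). Estimates lay above 0 for 8 of the 9 macrophage markers, with Adgre1 at -0.15. Their part in the Xdh level was not tested.

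Genes whose levels followed the same course over the 6 libraries were ranked by the mean absolute difference between their log2 deviations and those of the enzyme, among 5857 symbols with a mean of at least 20 CPM. Nearest to Xdh were C1s, a serine protease of the complement cascade (difference 0.048), Lpar1, a receptor for lysophosphatidic acid (0.068), and Fgl2, a fibrinogen-like protein (0.074). C1s was at 81.0, 149 and 143 CPM in control and at 195, 237 and 212 CPM in doxorubicin libraries 1, 2 and 3. Like Xdh, it was lowest in control library 1 and highest in doxorubicin library 2. Nearest to Cyb5r3 were Uqcrb, a subunit of respiratory complex III (0.021), Rbpms2, an RNA-binding protein (0.030), and Gdi2, a regulator of Rab GTPases (0.033). These differences describe 6 libraries, 3 per treatment, and carry no test.

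Xdh acts late in purine breakdown, and Gda, guanine deaminase, supplies it with xanthine. The purine degradation list of 21 other genes is broad, and also holds salvage enzymes and transporters. Of the 21, 15 were tested, and 0 passed the adjusted threshold in edgeR or DESeq2. At an unadjusted p under 0.05 there was 1 on the higher side and 0 on the lower, against 4.00% and 4.11% of all symbols. The gene on the higher side was Gda, at 5.35, 7.11 and 7.95 CPM in control and 9.95, 16.2 and 30.7 CPM in doxorubicin libraries 1, 2 and 3. The groups did not overlap, and doxorubicin library 3 was far above the other 2. The log2 fold change of Gda was 1.47 (SE 0.40, edgeR adjusted p = 0.244), on 14 to 104 reads. The median of the list was -0.04. Pnp, the purine nucleoside phosphorylase that yields hypoxanthine and guanine, had a log2 fold change of -0.04 (SE 0.21).

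In the list of partners of Cbr4 in mitochondrial fatty acid synthesis, the pathway that makes the precursor of lipoic acid, 9 of 9 tested genes were lower in doxorubicin, as were 47.9% of all symbols. The median log2 fold change was -0.46 against 0.02 for all symbols. The list is broad, and also holds the lipoic acid genes Lipt1 (-0.03), Lias (-0.08) and Lipt2 (-0.68), and Acacb (-0.10). At an unadjusted p under 0.05 there were 4 on the lower side, where 4.11% of all symbols were, and 0 on the higher side. None of the 9 passed the adjusted threshold in edgeR or DESeq2. Mecr, the enoyl reductase of the pathway, was at 62.6, 64.4 and 50.5 CPM in control and at 32.4, 42.4 and 27.1 CPM in doxorubicin libraries 1, 2 and 3, a log2 fold change of -0.80 (SE 0.22, edgeR adjusted p = 0.249). Mcat, the malonyl transferase, had -0.52 (SE 0.20), and Ndufab1, the acyl carrier protein that also sits in respiratory complex I, had -0.50 (SE 0.21). Hsd17b8, the subunit that joins Cbr4, was at 144, 94.6 and 96.0 CPM in control and at 82.2, 85.8 and 75.5 CPM in doxorubicin libraries, and its log2 fold change was -0.46 (SE 0.20). The groups of each of these 4 genes, named for their small unadjusted p, were apart, as were those of Lipt2. That was 5 of the 9 tested genes apart on the lower side, against 7.06% of all symbols. Without control library 1 only Mecr kept an unadjusted p under 0.05, and the median was -0.23 with 8 of 9 below 0. The estimates of Ndufab1 and Hsd17b8 were then -0.25 and -0.23. The cardiomyocyte markers had medians of -0.42 with and -0.18 without control library 1, and their part in these values was not tested.

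Among other carbonyl reductases of the short-chain dehydrogenase family, 21 of 28 listed genes were tested. On the lower side 2 were at an unadjusted p under 0.05, against 4.11% of all symbols. The 2 genes were Decr1, a reductase of unsaturated fatty acid oxidation, and Hsd17b8. Decr1 was at 239.8, 219.9 and 228.6 CPM in control and at 184, 184 and 157 CPM in doxorubicin libraries 1, 2 and 3, so its groups were apart (log2 fold change -0.39, SE 0.17, edgeR adjusted p = 0.579). None was on the higher side, and the median of the 21 was -0.13. Of 16 other aldo-keto reductases only 6 were tested and 4 were listed at 0 in every library. None of the 6 was at an unadjusted p under 0.05. Akr1c15 had 806 to 1578 reads per library, and its log2 fold change was -0.07 (SE 0.19), or -0.21 without control library 1. Akr1b10 ranged from 48 to 268 reads and its log2 fold change was 0.01 (SE 0.36); as a relative of Akr1b1 it could share reads with it, whose counting is not stated.

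Other quinone and flavoprotein reductases numbered 31 tested of 38, with a median of -0.12. At an unadjusted p under 0.05 there was 1 on the higher side and 2 on the lower, against 4.00% and 4.11% of all symbols. Txnrd2, the mitochondrial thioredoxin reductase, was at 127.5, 109.7 and 123.2 CPM in control and at 68.7, 93.9 and 70.4 CPM in doxorubicin libraries 1, 2 and 3. Its groups were apart, with a log2 fold change of -0.63 (SE 0.19, edgeR adjusted p = 0.312). Cyb5b, the outer-membrane cytochrome b5 that accepts electrons from Cyb5r3, was at 194, 241 and 205 CPM in control and at 147, 153 and 164 CPM in doxorubicin libraries, a log2 fold change of -0.46 (SE 0.17, edgeR adjusted p = 0.487). Its doxorubicin values lay below all controls, as those of Cyb5r3 did. Aox3, an aldehyde oxidase related to Xdh, had 5 to 51 reads and a log2 fold change of 1.13 (SE 0.49), which was 0.79 without control library 1. Nos3, the endothelial nitric oxide synthase, whose reductase domain resembles Por, had a log2 fold change of -0.15 (SE 0.18).

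In the list of partners of Por, mainly P450s, 16 of 24 genes were tested, with a median of 0.25 against 0.02 for all symbols. Estimates lay above 0 for 11 and below 0 for 5. The list is broad, and its median also takes in Pgrmc2 (0.37), Fads1 (0.32) and Fads2 (0.23), which are not P450s. At an unadjusted p under 0.05 there were 2 on the higher side and 0 on the lower, against 4.00% and 4.11% of all symbols. Cyp26b1, which breaks down retinoic acid, had 4 to 31 reads and a log2 fold change of 1.09 (SE 0.45), with its groups apart. Cyp2j4 had 8 to 34 reads and a log2 fold change of 1.12 (SE 0.50), with its groups overlapping. Without control library 1 the median was 0.10, with 1 gene on each side at an unadjusted p under 0.05. These were Cyp26b1, higher, and Hmox1, heme oxygenase, lower at -0.56. Of all symbols, 531 of 9465 were at that threshold in either direction without that library. NADPH-supplying enzymes, 17 tested of 20, had a median of -0.15. Against 4.11% of all symbols, 2 of these genes were lower at an unadjusted p under 0.05, and 0 were higher. These were the malic enzymes Me1 (log2 fold change -0.42, SE 0.19) and Me3 (-0.38, SE 0.17), whose groups were apart. Without control library 1 their unadjusted p-values were 0.0590 and 0.0511, and the median of the list was -0.05.

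Nrf2 pathway genes, 27 tested of 33, split both ways, with a median of -0.002. At an unadjusted p under 0.05 there were 3 on the higher side and 2 on the lower, against 4.00% and 4.11% of all symbols. None of the list passed the adjusted threshold in edgeR or DESeq2. Gstm1, a glutathione transferase, was at 93.6, 71.1 and 88.0 CPM in control and at 123, 123 and 147 CPM in doxorubicin libraries 1, 2 and 3. Its groups were apart, with a log2 fold change of 0.63 (SE 0.18, edgeR adjusted p = 0.288). Gsta1, another glutathione transferase, was at 24.1, 23.5 and 23.0 CPM in control and at 45.9, 48.7 and 28.0 CPM in doxorubicin libraries, with 0.79 (SE 0.25, edgeR adjusted p = 0.353). Nfe2l2, the gene of Nrf2 itself, was at 51.9, 74.6 and 86.3 CPM in control and at 99.2, 86.4 and 108 CPM in doxorubicin libraries, with 0.46 (SE 0.21) and control library 1 again the lowest. Without that library its log2 fold change was 0.29 with an unadjusted p of 0.139. The ferritin gene Fth1 had -0.50 (SE 0.22), or -0.24 without control library 1, and Me1 was the other gene on the lower side. Without control library 1 the list still had 3 genes at an unadjusted p under 0.05 on the higher side and 1 on the lower. The higher ones were Gstm1 (0.72), Gsta1 (0.82) and Gstm2 (0.58, from 0.39 with all libraries), and the lower one was Hmox1 (-0.56). Gstm1 and Gsta1 belong to families of close relatives, so reads shared within each family make their levels uncertain.

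In the polyol and osmolyte list, which holds the neighbours of Akr1b1 in metabolism, 10 of 14 genes were tested, with a median of 0.13. Slc6a6, the taurine transporter, was at 5.73, 12.4 and 8.24 CPM in control and at 31.1, 5.62 and 48.0 CPM in doxorubicin libraries 1, 2 and 3. Doxorubicin library 2 lay below all controls and the other 2 well above them (log2 fold change 1.70, SE 0.62, edgeR adjusted p = 0.498). Impa2, an inositol monophosphatase, had -0.62 (SE 0.22, edgeR adjusted p = 0.451) with its groups apart. Without control library 1 neither was at an unadjusted p under 0.05, and the median of the list was -0.01.

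**Figure D4:**
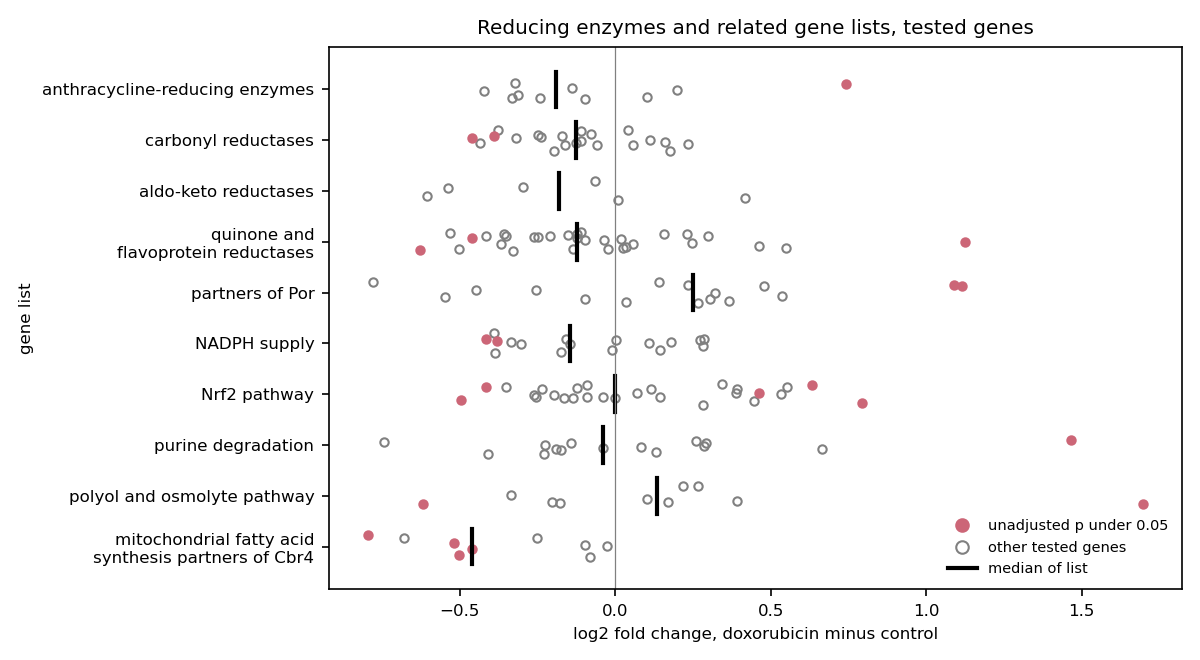
Log2 fold change, doxorubicin minus control (horizontal axis), of each tested gene in the 10 enzymes and 9 related lists (rows; vertical scatter within a row has no meaning), with filled points for an unadjusted p under 0.05 and a black bar at each list's median. Xdh is the only filled point in the top row, and all 9 tested genes of the list of Cbr4 partners lie below 0 with a median of -0.46.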

How the data were processed

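RNA-seq read counts from 6 rat hearts, 3 control and 3 doxorubicin, were used. The authors deposited 1 table of raw counts per annotated feature, not normalized. Per the submitters' processing notes FastQC, Trimmomatic, STAR and HTSeq were used with the build mRatBN7.2; versions, counting mode, strand and annotation are not given in the sources used here. The 18473 rows were summed to 17487 symbols. Groups came from the sample titles.

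The main test was edgeR 4.0.16 (R 4.3.3) quasi-likelihood with TMM scaling, robust dispersion and filterByExpr (minimum count 10, minimum total 15), which kept 99.7% to 99.8% of counts, with Benjamini-Hochberg adjustment over 9205 symbols. SE was the absolute log2 fold change over the square root of F. Log2 CPM used a prior count of 2. The fit was tested on simulated data. Alternatives were other scalings and filters, DESeq2 1.42.0, limma 3.58.1 voom, the replicate number as a block, each library left out, and rows kept separate or single-row symbols only. The members and lists were chosen with earlier results of these data known, and the list and marker counts without control library 1 were added after the data were seen. All 10 enzymes were named, and of each list any gene past the adjusted threshold and up to 4 of smallest unadjusted p under 0.05 with a mean of at least 5 CPM, and the 3 symbols nearest to each enzyme whose groups did not overlap. Pnp, Akr1c15, Akr1b10, Nos3, Nfe2l2, Hmox1, Gstm2, Pgrmc2, Fads1, Fads2, Lipt1, Lipt2, Lias, Acacb and all marker genes were named after their values were seen. Python 3.11.15, pandas 2.3.3, scipy 1.17.1 and matplotlib 3.10.9 were used otherwise.

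Same-numbered libraries are different animals, and their deviations correlated at -0.19 to 0.02. Libraries of a group differed by more than counting noise (chi-square over its degrees of freedom 4.11 or more). Depth was 2219685 to 3508282 counts per library. Intervals cover counting error only where they are Wilson or Poisson intervals.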

Additional observations from a re-analysis of the deposited data

How the results depend on the processing

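Over 19 alternatives and 10 enzymes, 186 of 190 log2 fold changes kept their direction and 0 passed the adjusted threshold. The 4 reversals were single-library omissions: Cbr1 ranged from -0.37 to 0.13 and Akr1a1 from -0.27 to 0.078 over those fits. Enzymes at an unadjusted p under 0.05 ranged from 1 to 2, the second being Akr7a2 without doxorubicin library 2, and enzymes with groups apart from 2 to 4, where with 1 library left out 20.5% to 26.4% of all symbols were apart. Symbols past the adjusted threshold, 5 in the main analysis, were 0 with library size only (713 at an unadjusted p under 0.05) and with limma voom (740), 61 without a filter, 75 with DESeq2, and 1 each at a mean of at least 5 CPM, with non-robust dispersion and with single-row symbols only. Leaving out single libraries gave 0 to 35, with 531 to 636 at an unadjusted p under 0.05 in the 4 fits that gave 0. The cause of these changes was not tested. With the replicate number as a block 13 symbols passed, and 0 of the 10 enzymes. The deviations of same-numbered libraries correlated at -0.19 to 0.02 over 3 pairs. The labels describe no pairing, and 3 such values cannot settle whether the numbers mark shared handling. Library size only moved the median of all symbols from 0.02 to 0.10. Counts of list genes at an unadjusted p under 0.05 without control library 1, added after the data were seen, went from 2 to 1 for carbonyl reductases, 2 to 0 for NADPH supply and for the polyol list, 4 to 1 for partners of Cbr4 and 3 to 1 for macrophage markers. They went from 3 to 2 for quinone and flavoprotein reductases, 5 to 4 for the Nrf2 list, 4 to 3 for cardiomyocyte markers and 1 to 0 for fibroblast and erythroid markers. Purine degradation stayed at 1 and endothelial markers at 2. Partners of Por stayed at 2, with Hmox1 in place of Cyp2j4. Of all symbols, 746 of 9205 were at that threshold with control library 1 and 531 of 9465 without it. Depth limits Cbr1 and Cbr3 most, at 9 to 56 reads per library.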
